A study of Mus musculus with 7 samples.

Results

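Described here are 10 genes of cardiac calcium handling and of the dyad, the place where the surface membrane of a heart muscle cell meets its calcium store. They are Cacna1c, Cacna2d1, Cacnb2, Jph1, Jph2, Casq2, Asph, Hrc, Atp2a2 and Camk2d. They were taken by gene name from a table of read counts that held 20343 complete gene rows, and each name matched 1 row. RNA had been sequenced from the apex of 7 hearts. The 4 control hearts came from untreated mice and the 3 transferred hearts from mice that had received human CD4+ T cells 6 weeks earlier. All 7 mice were of 1 strain, labelled NSG-DRB1*0101 and also called NSG-DR1, so the immunodeficient NSG background and the human HLA-DR1 transgene were shared by both groups. The controls received no cells of any kind, and the age and sex of the animals, the donors of the T cells and their number are not given in the sources used here. The labels name each sample as a separate heart. Control hearts are numbered as in their titles, and transferred hearts 1, 2 and 3 are those titled h1, h45 and h7. What h45 stands for is not given in the sources used here.

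At each heartbeat the L-type calcium channel of the T-tubule membrane opens and lets in a small amount of calcium. This triggers a larger release from the sarcoplasmic reticulum (SR), the internal calcium store, through the ryanodine receptor. The pore of the L-type channel is encoded by Cacna1c, and its auxiliary subunits by Cacna2d1 and Cacnb2. Junctophilins (Jph1, Jph2) tether the SR to the T-tubule, calsequestrin (Casq2) and the histidine-rich calcium binding protein (Hrc) hold calcium inside the SR, and junctin, a product of the Asph locus, is a partner of the ryanodine receptor. The SERCA2 pump (Atp2a2) returns calcium to the SR, and CaMKII delta (Camk2d) is a kinase switched on by calcium and calmodulin. The ryanodine receptor Ryr2, phospholamban (Pln), triadin (Trdn) and the sodium-calcium exchanger Slc8a1 are not analysed here.

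The rows came from chromosomes 1 to 7 and a first stretch of chromosome 8, with 16402194 to 25190580 counts per heart. Levels are CPM, the share of a gene in the counts of its library, over the rows kept for the tests and not the whole genome. They were scaled by TMM, the trimmed mean of M values, a method that adjusts libraries to each other. The animal identifiers of control heart 1 and transferred heart 1 begin with letters and those of the other hearts are numbers alone. Heart muscle markers were abundant: 8 of the 10 listed were in the table, and their summed level was 107800 to 124320 CPM in control hearts and 103250 to 132170 CPM in transferred hearts. The highest of these sums was in transferred heart 1, and the groups overlapped. The 9 macrophage markers in the table summed to 495 to 738 CPM in control hearts and 853 to 1282 CPM in transferred hearts, without overlap, and 2 of them (C1qb, Mrc1) were higher by the test. The 6 endothelial markers in the table summed to 2158 to 2779 CPM and 1882 to 2157.5 CPM, with 1 of them (Aqp1) lower by the test. Without Aqp1 the other 5 summed to 1431 to 1820 CPM and 1527 to 1668 CPM, which overlapped, and 3 of these 5 had estimates above 0. All 3 calls were lost with limma-voom, with the identifier form as a covariate, without both letter-prefix hearts, and without any 1 control heart or transferred heart 2, and 1 of the 3 was kept without transferred heart 1. No marker of the 10 cell type lists that was in the table had 0 counts over all hearts. In whole tissue, fewer cells of a type and less RNA per cell cannot be told apart, and the part of the macrophage markers and of Aqp1 in the values below was not tested.

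Per length of exon, the 10 genes spanned a wide range of levels. Atp2a2 stood at 4745 ± 376 CPM per kilobase (SD, n = 7), which ranked 9 among 7667 tested genes. Casq2 followed with 1248 ± 199 CPM per kilobase (SD, n = 7) and Hrc with 1147 ± 154 CPM per kilobase (SD, n = 7). The ranges of this calcium-storing pair overlapped, and Casq2 was the higher of the pair in 5 of 7 hearts. Jph2 stood at 349 ± 35.5 CPM per kilobase (SD, n = 7), below every value of Hrc. Asph, Cacna1c, Cacna2d1 and Camk2d had means of 42.4, 42.1, 36.1 and 36.1 CPM per kilobase, and each neighbouring pair of these overlapped. Cacna1c was nevertheless above Cacna2d1 in 7 of 7 hearts. Cacnb2 was lower, at 26.4 ± 2.75 CPM per kilobase (SD, n = 7), and Jph1 was lowest, at 8.02 ± 0.688 CPM per kilobase (SD, n = 7). These levels divide by the combined exons of all transcripts of a gene, so long loci with many isoforms, such as Asph (14305 bases) and Cacna1c (17697 bases), can appear low.

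**Figure D1:**
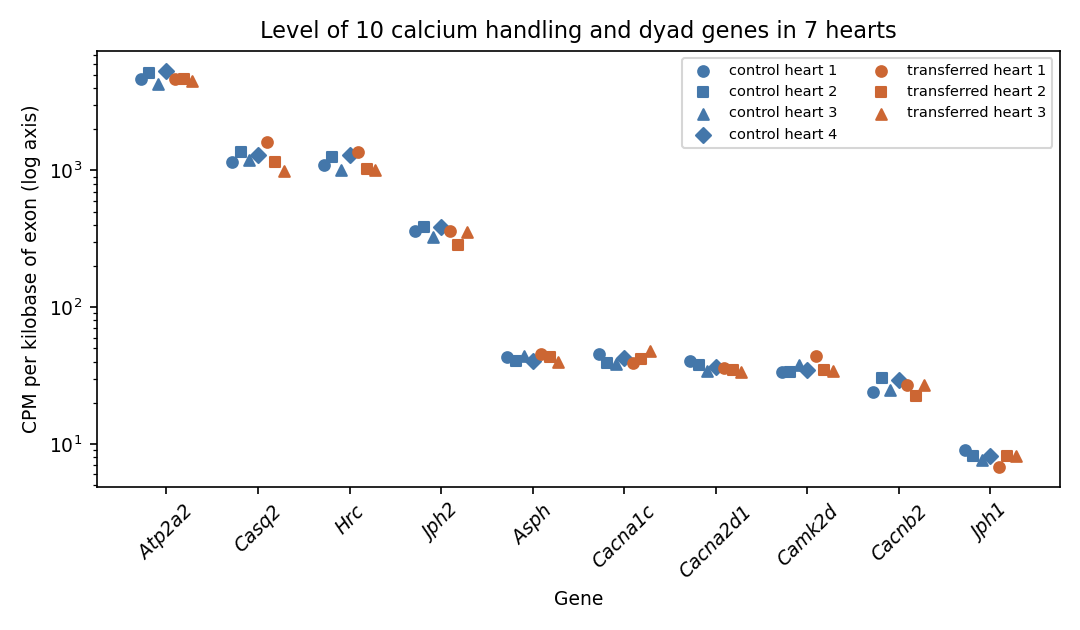
Level of the 10 genes per kilobase of combined exon (log axis), 1 point per heart, blue for the 4 control and orange for the 3 transferred hearts. Atp2a2 lies highest at 4276 to 5355 CPM per kilobase and Jph1 lowest at 6.76 to 9.01 CPM per kilobase, and within each gene the orange and blue points overlap.

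For 5 pairs of related genes in the table, most of the summed level came from the member described here. Other relatives, such as Atp2a3, Cacna1d, Cacnb3 and Jph3, are not analysed here, so these are not shares of a whole family. Atp2a2 made up 99.995% to 99.998% of the summed level per kilobase of Atp2a2 and Atp2a1, the pump of fast skeletal muscle. Casq2 made up 98.6% to 99.2% of Casq2 plus Casq1, the skeletal calsequestrin. Jph2 made up 97.2% to 98.2% of Jph2 plus Jph1, and Cacnb2 made up 99.3% to 99.8% of Cacnb2 plus Cacnb4. Cacna1c made up 85.3% to 89.4% of Cacna1c plus Cacna1s, the skeletal muscle channel pore, in control hearts and 81.8% to 86.3% in transferred hearts, and these ranges overlapped.

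Transfer of human CD4+ T cells was not followed by a detectable shift in any of the 10 genes. With edgeR's quasi-likelihood test and Benjamini-Hochberg adjustment over 7667 genes, 0 of 10 passed an adjusted p of 0.05, against 0.235% of all tested genes (18 genes). At an unadjusted p under 0.05 there were also 0 of 10, against 12.4% of all tested genes. DESeq2 called 0 of 10 against 3.29% of all tested genes (252 genes), and limma-voom called 0% of all tested genes and so none of the 10. Control and transferred hearts overlapped in 10 of 10 genes. Over all tested genes the groups were apart in 11.2%. Of the 10 estimates, 7 were below and 3 above 0, with a median log2 fold change of -0.065 beside -0.0020 over all tested genes (50.3% of which were below 0). This median was -0.00029 with heart muscle marker scaling, -0.0031 without transferred heart 2 and -0.12 without control heart 3. The sign of Casq2 turned with total count, RLE and heart muscle marker scaling, and that of Hrc with the last of these. The 95% intervals of the single genes, unadjusted for the number of genes, reached at most 22.5% below the control level (Jph2, lower bound -22.5%) and 26.9% above it (Casq2). Shifts beyond these bounds lay outside the interval of every one of the 10 genes, and small shifts within an interval were not detectable with 4 and 3 hearts. The edgeR p-values weigh the group difference against the spread between hearts of a group, estimated with information shared over all tested genes.

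**Figure D2:**
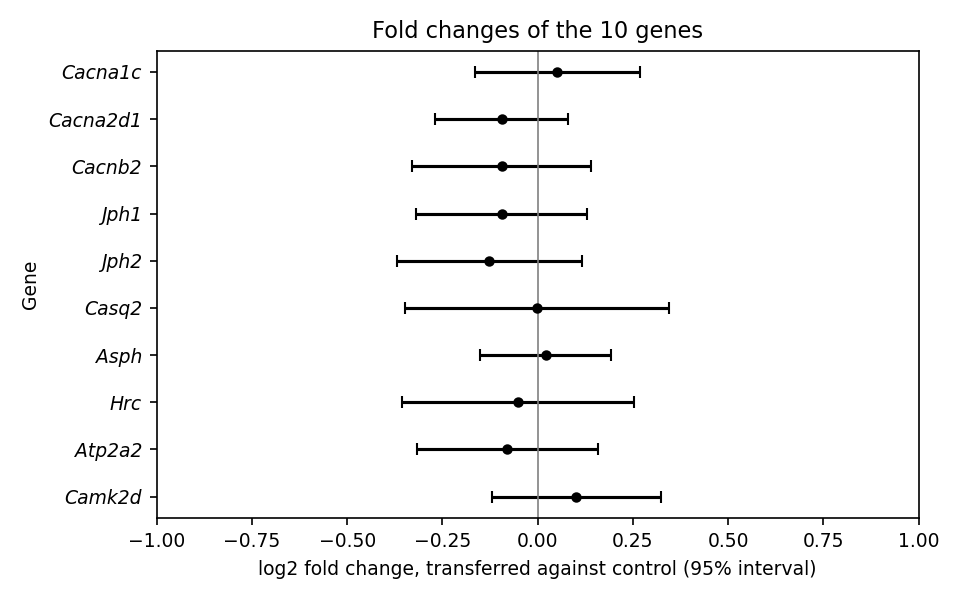
log2 fold change of each gene, transferred against control hearts (points), with the 95% interval from edgeR's quasi-likelihood fit (bars). All 10 intervals include 0, the narrowest is that of Asph (-0.15 to 0.19) and the widest that of Casq2 (-0.35 to 0.34).

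Among the genes of the trigger channel, Cacna1c (gene 12288, chromosome 6, 118587240 to 119197384, minus strand) stood at 804, 695, 678 and 757 CPM in control hearts 1 to 4 and at 688, 745 and 848 CPM in transferred hearts 1 to 3. A transferred heart was the highest of the 7 and another the second-lowest. Its estimated log2 fold change was 0.052 ± 0.097 (standard error, edgeR adjusted p = 0.874). This became 0.12 without transferred heart 1 and -0.033 without transferred heart 3. Cacna2d1 (gene 12293, chromosome 5, 15934264 to 16374511, plus strand), whose product raises the number of channels at the surface, stood at 467, 436, 395 and 422 CPM in control and 416, 404 and 387 CPM in transferred hearts. The lowest value was a transferred heart, but control heart 3 lay below 2 of the transferred hearts. Its estimated log2 fold change was -0.094 ± 0.078 (standard error, edgeR adjusted p = 0.685), the smallest adjusted p of the 10.

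Cacnb2 (gene 12296, chromosome 2, 14603861 to 14988811, plus strand) encodes the beta subunit that modulates gating and carries the pore to the membrane. It stood at 177, 221, 182 and 215 CPM in control hearts and 196, 165 and 197 CPM in transferred hearts. The estimated log2 fold change was -0.095 ± 0.10 (standard error, edgeR adjusted p = 0.782), and -0.016 without transferred heart 2. Transferred heart 2 was the lowest of the 7, and the other transferred hearts lay between the control values. Several pseudogenes lie within this locus, and the largest of them (Gm13316) had 3.93% as many counts as Cacnb2. No other gene overlapping a member had more than 0.995% of that member's counts (Dcp1b at the Cacna1c locus).

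Of the junctophilins, Jph2 (gene 59091, chromosome 2, 163336242 to 163398049, minus strand) is the main cardiac form. It stood at 1708, 1827, 1547 and 1828 CPM in control hearts and 1718, 1349 and 1680 CPM in transferred hearts. Transferred heart 2 had the lowest value of the 7, 78.1% of the control mean, and the other transferred hearts were inside the control range. On the log2 scale the difference was -0.13 ± 0.11 (standard error, edgeR adjusted p = 0.695), the lowest estimate of the 10. Without transferred heart 2 it was -0.023, and that of Jph1 was lower, at -0.14. Jph1 (gene 57339, chromosome 1, 16942104 to 17097922, minus strand), the form best known from skeletal muscle, stood at 48.4, 43.9, 40.9 and 43.9 CPM in control and 36.3, 44.3 and 43.8 CPM in transferred hearts. Here transferred heart 1 was the low one, at 82.0% of the control mean. On the log2 scale the difference was -0.095 ± 0.10 (standard error, edgeR adjusted p = 0.768). Without transferred heart 1 it was -0.0072.

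The calcium-storing genes Casq2 and Hrc had the widest spread among transferred hearts. Casq2 (gene 12373, chromosome 3, 102086415 to 102146514, plus strand) stood at 2962, 3488, 3030 and 3331 CPM in control hearts and 4127, 2935 and 2533 CPM in transferred hearts. The transferred hearts held both the highest value, 129% of the control mean, and the 2 lowest. Its coefficient of variation was 7.76% in control hearts and 25.9% in transferred hearts, at the 31.8 and 77.3 percentiles of all tested genes. Whether the groups differ in spread was not tested. The group means were 3203 ± 248 CPM (SD, n = 4) and 3198 ± 828.7 CPM (SD, n = 3). On the log2 scale they differed by -0.0021 ± 0.15 (standard error, edgeR adjusted p = 0.996). The difference was -0.23 without transferred heart 1 and 0.14 without transferred heart 3.

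Hrc (gene 15464, chromosome 7, 45335269 to 45338973, plus strand) showed the same order of transferred hearts. It stood at 2657, 3055, 2442 and 3165 CPM in control and 3294, 2475 and 2425 CPM in transferred hearts, with transferred heart 1 highest and transferred heart 3 lowest of the 7. On the log2 scale the groups differed by -0.051 ± 0.14 (standard error, edgeR adjusted p = 0.916). This became -0.21 without transferred heart 1 and 0.028 without transferred heart 3. Asph (gene 65973, chromosome 4, 9449085 to 9669344, minus strand) was the steadiest gene, at 616, 582, 634 and 580 CPM in control and 646, 622 and 568 CPM in transferred hearts. Its highest value was 1.14 times its lowest. On the log2 scale the groups differed by 0.021 ± 0.077 (standard error, edgeR adjusted p = 0.942). A gene count cannot separate junctin from the aspartyl hydroxylase and junctate, which the same locus encodes.

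Casq2 and Hrc had the highest correlation of the 45 pairs of these genes, as given further on. Among all pairs of 5073 genes, 0.884% had one at least as high. The 250 bases before the annotated starts of Casq2 and Hrc are shown because the pair was picked by this rank. They are from RefSeq (GRCm38.p6), plus strand, Casq2 at chr3:102086165-102086414 and Hrc at chr7:45335019-45335268, in lower case with E-boxes (CANNTG, bound by basic helix-loop-helix factors) in capitals.
Casq2: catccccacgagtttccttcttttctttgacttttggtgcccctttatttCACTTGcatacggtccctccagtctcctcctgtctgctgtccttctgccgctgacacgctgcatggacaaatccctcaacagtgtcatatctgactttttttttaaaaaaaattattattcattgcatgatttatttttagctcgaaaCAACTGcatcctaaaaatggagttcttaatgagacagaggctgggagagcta
Hrc: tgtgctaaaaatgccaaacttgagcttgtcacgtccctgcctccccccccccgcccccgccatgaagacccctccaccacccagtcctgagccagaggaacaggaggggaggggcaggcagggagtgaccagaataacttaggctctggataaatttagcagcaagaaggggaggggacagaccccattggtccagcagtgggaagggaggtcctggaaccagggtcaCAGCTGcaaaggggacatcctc
Both strands were searched for the E-box, for the TATA box spelled TATAAA, for the GATA motif spelled AGATAA, for the M-CAT motif spelled CATTCC and for the CArG box. Casq2 held 2 E-boxes, whose first bases lay 200 and 52 bases before the start, and Hrc held 1, at 22 bases. E-boxes were in 66.2% of all 32536 promoter windows of this length, so their presence does not set the pair apart. The other motifs, found in between 1.48% (CArG box) and 12.6% (M-CAT) of all windows, had no match in either sequence, and no matches overlapped. Of the 10 genes, 7 had a promoter in the table used, and Atp2a2, Jph1 and Asph were not among them.

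The SR pump gene Atp2a2 (gene 11938, chromosome 5, 122453513 to 122502225, minus strand) alone took 2.52% to 2.96% of the counts of a heart in the rows used. The 10 genes together took 3.50% to 4.00%. These are not shares of a whole library, because the rows end on chromosome 8. The pump gene is described next. Atp2a2 stood at 26659, 29423, 24481 and 30659 CPM in control hearts and 26797, 26513 and 25613 CPM in transferred hearts. All 3 transferred values lay inside the control range. Their coefficient of variation was 2.35%, at the 3.12 percentile of all tested genes, and that of the control hearts was 9.98%, at the 44.8 percentile. Whether the groups differ in spread was not tested. The estimate was -0.080 ± 0.11 on the log2 scale (standard error, edgeR adjusted p = 0.822).

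Camk2d (gene 108058, chromosome 3, 126595487 to 126846326, plus strand) stood at 374, 375, 416 and 385 CPM in control hearts and 486, 384 and 378 CPM in transferred hearts. Transferred heart 1 was above every other heart, at 125% of the control mean, and the other transferred hearts were within the control range. The estimate was 0.10 ± 0.099 on the log2 scale (standard error, edgeR adjusted p = 0.740), the highest estimate of the 10. Without transferred heart 1 it was -0.024 (edgeR adjusted p = 0.913).

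**Figure D3:**
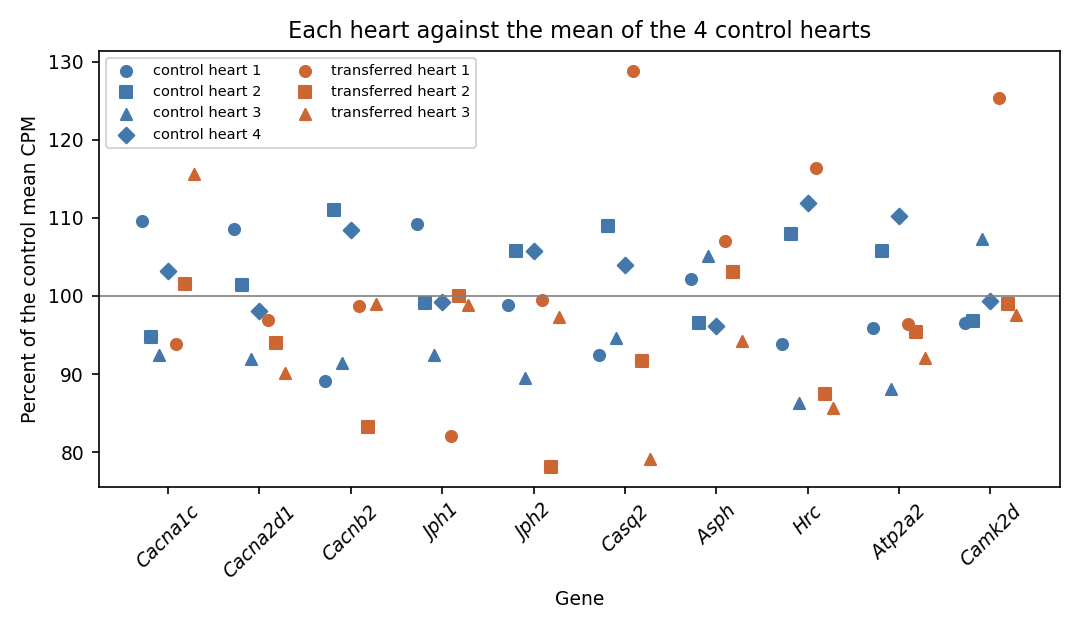
CPM of each gene in each heart as a percentage of the mean of the 4 control hearts (line at 100), blue for control and orange for transferred hearts, 1 symbol shape per replicate number. Transferred heart 1 is high for Casq2 (129%) and Camk2d (125%) and low for Jph1 (82.0%), transferred heart 2 is low for Jph2 (78.1%), and in every gene the groups overlap.

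Transferred heart 1 was the highest of 7 hearts for Casq2, Asph, Hrc and Camk2d and the lowest for Jph1. Over all tested genes it was highest in 16.5% and lowest in 16.9%. The 2 erythroid markers in the table summed to 13106 CPM in transferred heart 1 and 14679 CPM in control heart 3. Their sum was 2736 to 6492 CPM in the other hearts. Within its group control heart 3 was also the highest for Asph and Camk2d and the lowest for Jph1. It was not the highest for Casq2 or Hrc. The part of the erythroid markers in these values was not tested. Within the control group, hearts 2 and 4 both lay above hearts 1 and 3 for Cacnb2, Jph2, Casq2, Hrc and Atp2a2, a pattern seen in 20.2% of all tested genes. Of the 8 heart muscle markers in the table, 2 (Actc1 and Ckm) had this order. The sum of the 8 had it through Actc1, the most abundant of them: without Actc1 the sum was 81083 CPM in control heart 1, 77914 in heart 2, 73609 in heart 3 and 78426 in heart 4, so that heart 1 was the highest. The part of Actc1 and Ckm in the values of the 5 genes was not tested. These patterns were chosen after the values were seen.

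The differences between the groups are given here by the form of the animal identifiers. Between the 2 hearts with letters, 1 of each group, the log2 difference was 0.48 for Casq2, 0.31 for Hrc, 0.38 for Camk2d and -0.41 for Jph1. Within the 5 hearts with numbers alone it was -0.27, -0.23, -0.040 and 0.038. For Cacna1c the pair of values was -0.22 with letters and 0.16 with numbers alone, and for Cacnb2 it was 0.15 and -0.19. For Jph2 (0.0087 and -0.20), Atp2a2 (0.0074 and -0.11) and Asph (0.068 and -0.0094) 1 of the values was within 0.01 of 0. The signs were opposite in 9 of 10 genes, these 3 included, and equal only for Cacna2d1, at -0.17 and -0.076. Over all tested genes they were opposite in 47.7%, and in 5 of the 8 heart muscle markers. A single pair has no replicate, so the part of the identifier form was not tested and cannot be told apart from these 2 animals. With the identifier form as a covariate, edgeR's quasi-likelihood test called 0 of 10 and 0% of all tested genes, so it says nothing particular of these.

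Ratios between partner genes within a heart do not depend on the scaling of libraries, and 6 were compared by a two-sided exact permutation test, whose smallest possible p over 35 splits is 0.0286. The log2 ratio of Cacna2d1 to Cacna1c per kilobase averaged -0.16 ± 0.072 (SD, n = 4) without transfer and -0.30 ± 0.20 (SD, n = 3) with it (exact permutation p = 0.343, 0.8 adjusted over the 6 ratios). That of Cacnb2 to Cacna1c was -0.61 ± 0.22 (SD, n = 4) and -0.76 ± 0.19 (SD, n = 3), with an exact permutation p of 0.571. The transferred minus control difference was 0.033 for Jph1 to Jph2, 0.045 for Casq2 to Atp2a2, -0.028 for Hrc to Casq2 and 0.050 for Asph to Casq2. Leaving out 1 heart could turn the direction of each, to as far as -0.13, -0.14, 0.029 and -0.051 in that order. The exact permutation p of these 4 lay between 0.743 and 0.8, and in 6 of 6 ratios the groups overlapped.

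Across the 7 hearts the 45 pairs of these genes had a median Pearson r of log2 CPM of 0.053, with 27 pairs above 0 and 18 below. The median over all pairs of 5073 genes of at least 10 CPM was 0.0019. The highest, the next highest and the lowest of the 45 are described. Casq2 and Hrc had r = 0.88 and a Spearman rho of 0.86, and r was 0.89 without the 2 hearts farthest from the median of Casq2. Cacnb2 and Jph2 had r = 0.87 and a Spearman rho of 0.79, and r was 0.72 without the 2 farthest hearts. Jph1 and Camk2d went in opposite directions, with r = -0.93 and a Spearman rho of -0.71. Without the 2 hearts farthest from the median of Jph1 this r was -0.94, and without transferred heart 1 alone it was -0.78. Transferred heart 1 and control heart 3, which had the highest erythroid marker sums, had the lowest Jph1 and the highest Camk2d. The part of the erythroid markers in this r was not tested. Among all pairs of the 5073 genes, 0.884% had an r at least as high as that of Casq2 and Hrc. The share was 1.15% for Cacnb2 and Jph2. An r at least as low as that of Jph1 and Camk2d was found in 0.195%. The 3 pairs were picked by these same values. The coefficients describe 7 points that share libraries and depth and include both groups.

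**Figure D4:**
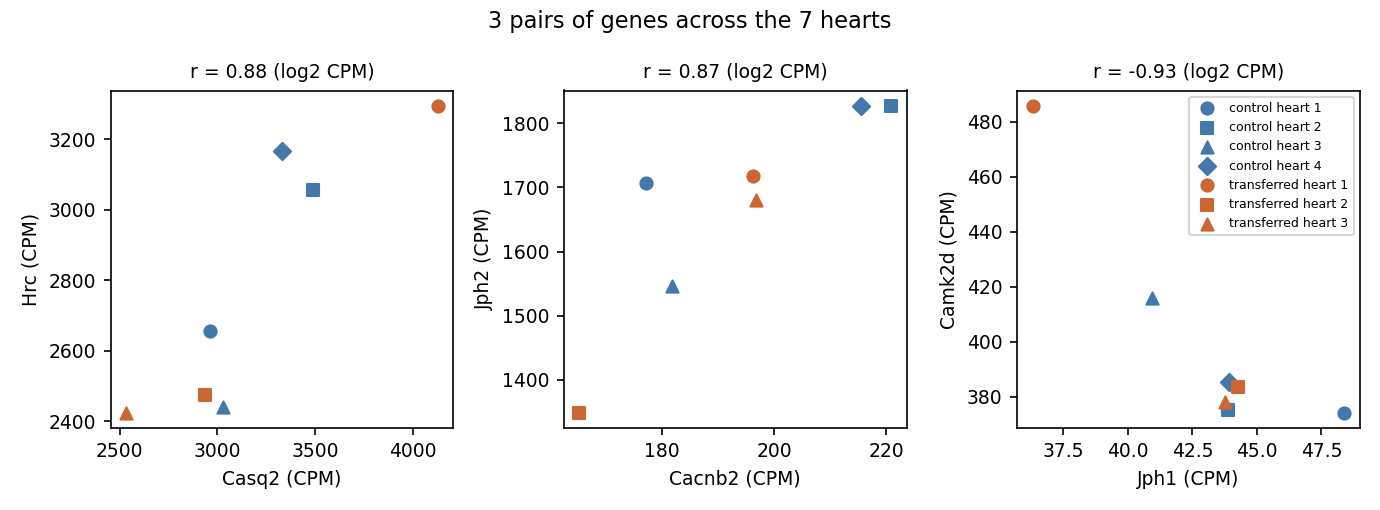
CPM of 3 pairs of genes, 1 point per heart, blue for control and orange for transferred hearts. Casq2 and Hrc are high together in transferred heart 1, and the same heart is at the corner of the Jph1 and Camk2d plot with 36.3 and 486 CPM.

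The tested gene of at least 10 CPM whose log2 CPM was most like a member over the 7 hearts was found among 5063 candidates. It was Map7d1 for Jph2 (r = 0.99), Ube2v1 for Casq2 (0.98), Capzb for Atp2a2 (0.98) and LOC115489432 for Jph1 (0.98). It was Slc25a22 for Cacnb2 (0.98), Gpx7 for Asph (0.97), Lmtk2 for Cacna2d1 (0.96) and Zfp638 for Cacna1c (0.96). For Camk2d it was Ube2l6 (r = 0.98), an ISG15-conjugating enzyme, which stood at 26.7 to 46.8 CPM in control hearts and at 104, 37.5 and 29.2 CPM in transferred hearts. As for Camk2d, transferred heart 1 was the high one, and a link between these genes was not tested. Each r of this paragraph is the highest of 5063 over 7 hearts, so the search itself favours high values.

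Of 93 other genes listed for calcium handling, 44 were in the table and 43 were tested. None passed the edgeR quasi-likelihood threshold in either direction (0 of 43 higher, against 0.13% of all tested genes, and 0 of 43 lower, against 0.104%), and the smallest edgeR adjusted p was 0.229. The median log2 fold change was 0.00055, with 22 above 0 and 21 below. At an unadjusted p under 0.05 there were 6 of 43, near the share of 12.4% of all tested genes. Of the 6, 4 had higher estimates (7.17% of all tested genes) and 2 had lower estimates (5.27% of all tested genes). DESeq2, which called 3.29% of all tested genes, called 0 of the 43, and limma-voom called no gene at all. The groups were apart in 5, with 4 higher (5.99% of all tested genes) and 1 lower in transferred hearts (5.22%).

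The 6 genes were of different roles. Camk1d, a calmodulin-dependent kinase, stood at 8.21 to 11.7 CPM in control hearts and 12.3 to 14.4 CPM in transferred hearts (log2 fold change 0.49, edgeR adjusted p = 0.229). Cacna1s stood at 32.3 to 43.3 CPM and 44.5 to 55.2 CPM (log2 fold change 0.33, edgeR adjusted p = 0.292). Ppp1cb, a catalytic subunit of protein phosphatase 1, had a log2 fold change of 0.18. Mcub, a subunit that restrains the mitochondrial calcium uniporter, had one of 0.73 at a control mean of 1.14 CPM. Stim1, the SR calcium sensor that opens store-operated channels, stood at 66.2 to 73.8 CPM in control hearts and 57.4 to 64.6 CPM in transferred hearts (log2 fold change -0.22, edgeR adjusted p = 0.292). Letm1, an ion exchanger of the inner mitochondrial membrane, stood at 245 to 319 CPM and 207 to 262 CPM (log2 fold change -0.36, edgeR adjusted p = 0.278), and its groups overlapped.

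The most abundant of the listed genes per length were Ppp1cb and 7 others. S100a1, a calcium-binding regulator of the pump and the release channel, stood at 1482 ± 113 CPM (SD, n = 4) and 1377 ± 102 CPM (SD, n = 3). Myoz2, a Z-disc protein that binds the phosphatase calcineurin, stood at 2469 ± 274 CPM (SD, n = 4) and 2165 ± 386 CPM (SD, n = 3). Strit1, whose small product DWORF stimulates the SERCA pump, stood at 178 ± 17.5 CPM (SD, n = 4) and 158 ± 45.1 CPM (SD, n = 3). Calu, Calm3, Fkbp1a and Cav3 had log2 fold changes of 0.10, -0.050, -0.060 and 0.058. Of these 8 genes none passed the threshold. Ryr1 and Ryr3, release channels best known from skeletal muscle and brain, were sparse, with control means of 1.40 and 7.04 CPM, log2 fold changes of -1.03 and -0.44, and edgeR adjusted p-values of 0.445 and 0.501.

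**Figure D5:**
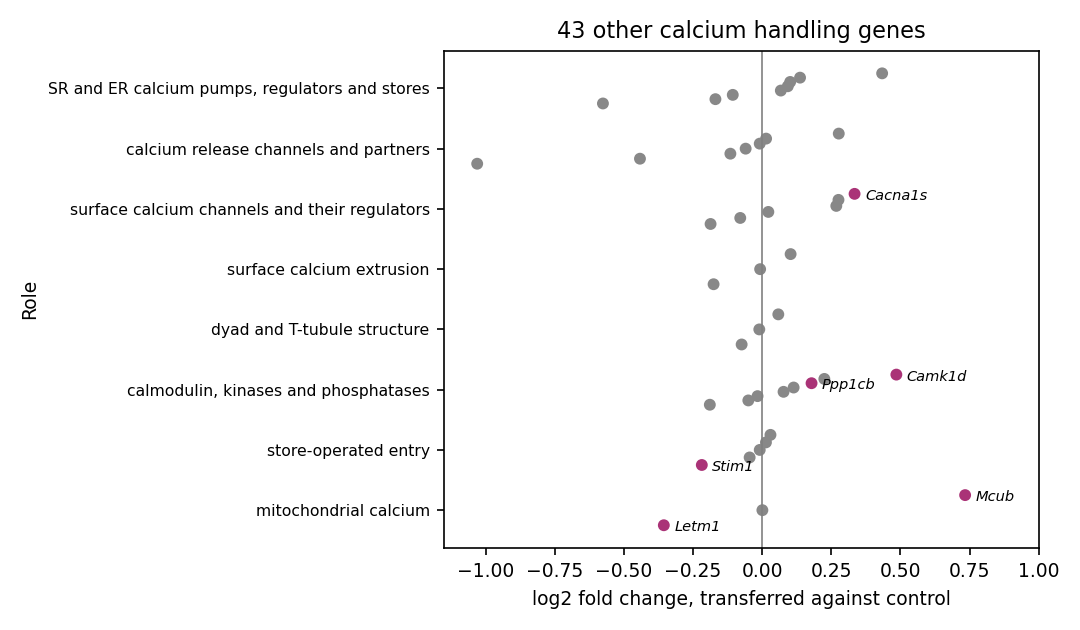
log2 fold change, transferred against control hearts, of the 43 other tested calcium handling genes by role, 1 point per gene; purple points with names have an unadjusted p under 0.05 and grey points do not. Values range from -1.03 to 0.73 and none passed the adjusted threshold.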

How the data were processed

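RNA was sequenced from 7 mouse hearts, and the authors deposited 1 table of counts per gene that were not normalized. The submitters' processing notes name bcl2fastq 2.20.0.422, cutadapt 2.5, STAR 2.7.2b, featureCounts 1.6.4, DESeq2 1.22.2 and the build GRCm38.p6, without settings or order. Of the deposited values 4.63% were fractional, so they were taken as estimated counts and rounded to whole counts for the tests. The header gives combined exon lengths. Whether counting used strand is not given in the sources used here. All 20343 gene identifiers and start positions matched RefSeq of GRCm38.p6. An unfinished last row was left out, and totals are sums over the rows used, not library depth.

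Genes were filtered with filterByExpr and scaled with TMM (edgeR 4.0.16, R 4.3.3), which left 7667, all 10 members included. The quasi-likelihood test with robust estimation and Benjamini-Hochberg adjustment (threshold 0.05) was run once over all of them. Its common biological coefficient of variation was 0.164. Standard errors came from its F statistic. log2 CPM used a prior count of 2. Alternatives were other scalings and filters, DESeq2 1.42.0, limma-voom (limma 3.58.1), an identifier covariate and left-out hearts. Exact permutation tests used SciPy 1.17.1.

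The members, the other calcium handling genes and the markers were chosen with earlier results of these data known. Named were all members, the listed genes with an adjusted or unadjusted p under 0.05, the 8 most abundant listed genes per kilobase, abundant markers, and the gene most like each member, except that of Hrc, which is not reported here. Ryr1 and Ryr3, and the marker genes C1qb, Mrc1 and Aqp1, were named after their values were seen.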

Additional observations from a re-analysis of the deposited data

How the results depend on the processing

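No paired analysis was possible because the groups share fewer than 2 replicate numbers in the labels. The number of members past the threshold was 0 under all 18 alternatives, as was the number of listed calcium handling genes. Over the 180 estimates of single members the log2 fold change lay between -0.26 and 0.17, with a lowest adjusted p of 0.395 (Casq2, without transferred heart 1). The direction was kept in all 18 alternatives for Cacna2d1 (-0.13 to -0.024), Cacnb2 (-0.18 to -0.016), Jph2 (-0.19 to -0.023) and Atp2a2 (-0.14 to -0.0069), with sizes that came close to 0 in some, and 18 estimates of the other genes changed sign. Casq2 was 0.0011 with total count scaling, 4.4e-05 with RLE scaling, 4.4e-05 with DESeq2 and 0.044 with cardiomyocyte marker scaling, and between -0.23 and 0.14 in the fits without 1 heart. Hrc was 0.0063 with cardiomyocyte marker scaling and between -0.21 and 0.028 without 1 heart. Without the 2 letter-prefix hearts Casq2 was -0.26, Hrc -0.23, Cacna1c 0.17, Jph1 0.045, Asph -0.0015 and Camk2d -0.034. Without 1 heart Jph1 lay between -0.14 and -0.0072, Asph between -0.019 and 0.072, Camk2d between -0.024 and 0.17, and Cacna1c between -0.033 and 0.12. The median of the 10, -0.065, was -0.00029 with cardiomyocyte marker scaling and between -0.12 and -0.0031 without 1 heart. The count of all genes past the threshold, 18 (10 higher, 8 lower), was 35 (26 higher) with total counts, 39 (36 higher) with cardiomyocyte marker scaling, 81 (66 higher) with no filter and 252 (192 higher) with DESeq2. It was 0 with limma-voom, 0 with the identifier covariate and 0 without the letter-prefix hearts, with 907, 973 and 1054 at an unadjusted p under 0.05. Without 1 heart it was between 0 and 140; it was 0 without control heart 1, 2 or 4 or transferred heart 2, 1 without control heart 3, and 140 without transferred heart 3. The cause was not tested. Without the letter-prefix hearts the ratio difference of Casq2 to Atp2a2 was -0.16, that of Hrc to Casq2 0.038, that of Jph1 to Jph2 0.24, that of Asph to Casq2 0.26 and that of Cacna2d1 to Cacna1c -0.24. Cacnb2 to Cacna1c, -0.14 with all hearts, was -0.35 without the letter-prefix hearts and between -0.25 and -0.065 without 1 heart, and Cacna2d1 to Cacna1c, also -0.14, was between -0.24 and -0.033 without 1 heart. The other differences without 1 heart lay between -0.13 and 0.19 for Jph1 to Jph2, -0.14 and 0.18 for Casq2 to Atp2a2, -0.10 and 0.029 for Hrc to Casq2, and -0.051 and 0.21 for Asph to Casq2. The smallest count of a member in a heart was 696 (Jph1, control heart 4).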
